A study of Mus musculus with 8 samples.

Results

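Skeletal muscle genes were followed in cultures of dermal cells that had been isolated from newborn C57BL/6 mouse skin and transfected either with control oligonucleotides (n = 4) or with a mimic of miR-127-3p (n = 4), a short synthetic RNA that stands in for the mature microRNA. The 10 genes were taken by symbol: Myod1, Myog, Des, Myh3, Myh8, Acta1, Actc1, Tnnt1, Tnnt3 and Chrna1. They were 10 of 21368 gene symbols on the array and were covered by 15 probes. The cells are labelled as fibroblasts. They were released from skin with dispase and collagenase and cultured, per the series' design text, which describes no sorting step. Samples carry the numbers 1 to 8, and controls are 1, 3, 6 and 8 and mimic samples 2, 4, 5 and 7. The treatment entry of controls 3 and 6 names both oligonucleotides, while their titles and source names say control. Nothing in the labels says whether the 8 samples came from separate animals, isolations or cultures, so the p-values below measure the spread between these samples, which may be partly technical.

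Skeletal muscle forms when myoblasts, which express the transcription factor Myod1, leave the cell cycle, switch on the factor Myog and fuse into multinucleated myotubes. The fused cells then assemble sarcomeres, the repeated contractile units of actin, myosin and troponin, and place acetylcholine receptors on their surface. Early myotubes use embryonic and perinatal myosins and the cardiac form of actin, which adult muscle largely replaces. Newborn mouse skin carries a sheet of striated muscle, the panniculus carnosus, beneath the dermis. Many of these genes are controlled by regulatory elements with the E-box, a short motif bound by Myod1 and Myog.

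The oligonucleotide that separates the groups mimics the mature miR-127-3p, printed here because it is the only treatment; RefSeq places it on chr12:109592888-109592909 of GRCm38.p6, plus strand, and capitals mark its seed, bases 2 to 8.
mmu-miR-127-3p: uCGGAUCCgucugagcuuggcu

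Promoters of 4 members are printed because Myog, Chrna1 and Actc1 varied together between arrays while Acta1 did not follow them. Each runs from 250 bases before to 50 bases after the gene's start in RefSeq's GRCm38.p6, and capitals mark E-boxes, CANNTG. Myog lies at chr1:134289754-134290053 on the plus strand, Chrna1 at chr2:73580289-73580588, Actc1 at chr2:114052826-114053125 and Acta1 at chr8:123894726-123895025, all 3 on the minus strand.
Myog: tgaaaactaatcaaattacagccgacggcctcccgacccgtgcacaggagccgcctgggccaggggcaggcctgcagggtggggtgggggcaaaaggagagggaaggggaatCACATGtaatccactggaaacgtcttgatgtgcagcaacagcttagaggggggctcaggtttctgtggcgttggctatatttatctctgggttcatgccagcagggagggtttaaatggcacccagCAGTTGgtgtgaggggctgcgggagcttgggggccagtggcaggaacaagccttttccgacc
Chrna1: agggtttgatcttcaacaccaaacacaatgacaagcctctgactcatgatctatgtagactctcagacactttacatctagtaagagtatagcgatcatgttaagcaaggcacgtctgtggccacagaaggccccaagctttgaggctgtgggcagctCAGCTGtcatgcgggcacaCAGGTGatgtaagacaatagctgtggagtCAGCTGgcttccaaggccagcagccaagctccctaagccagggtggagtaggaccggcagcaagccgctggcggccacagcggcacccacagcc
Actc1: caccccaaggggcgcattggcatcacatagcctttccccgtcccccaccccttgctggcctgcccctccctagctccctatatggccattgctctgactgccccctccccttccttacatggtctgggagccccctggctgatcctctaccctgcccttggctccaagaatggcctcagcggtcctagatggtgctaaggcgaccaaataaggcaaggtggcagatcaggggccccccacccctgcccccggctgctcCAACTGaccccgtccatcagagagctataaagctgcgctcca
Acta1: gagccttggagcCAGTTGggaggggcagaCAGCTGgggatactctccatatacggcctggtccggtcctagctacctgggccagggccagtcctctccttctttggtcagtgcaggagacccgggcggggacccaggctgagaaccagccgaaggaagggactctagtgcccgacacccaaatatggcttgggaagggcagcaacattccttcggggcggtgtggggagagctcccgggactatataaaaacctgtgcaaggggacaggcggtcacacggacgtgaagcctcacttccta

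Of the 10 members, 8 had a promoter in the RefSeq table (Myod1 and Tnnt3 had no entry), and each of the 8 held at least 1 E-box. The E-box was present in 72.3% of the table's 32817 promoters of 300 bases, searched on both strands, so most promoters hold it. The Chrna1 promoter held 3 E-boxes, of which 2 read CAGCTG; 16.3% of all promoters held CAGCTG and 1.9% held 2 or more of them. CAGCTG, which is itself a form of the E-box, also stood once in the Des and once in the Acta1 promoter. The MEF2 site was searched only in the strict form [CT]TAWWWWTA[AG], where W is A or T. In that form it was found only in Myh8 among the 8 (3.19% of all promoters). The stretch ctatatttat of the Myog promoter misses that form by its last base and was not counted. The CArG box, the site of serum response factor, was searched as CCWWWWWWGG and found only in Acta1 and Actc1 (1.63%). These matches are letters in a window and not measured binding.

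All 8 samples were read in a single dye, each on its own array of 1 slide. Each array had from 20756 to 23472 probes flagged as well above background by the scanner software. Values below are log2 processed intensities minus the array's 75th percentile, so 0 is the level that 75 percent of the array's probes lie under. Genes were compared with limma over 17093 features, each gene represented by its brightest probe, and an adjusted p under 0.05 was called. In that fit 5851 features, 34.2%, were called, 15.9% higher and 18.3% lower with the mimic; among features with a gene symbol 38.4% were called. All 8 genes of the dermal fibroblast list were above background on all 8 arrays. The smooth muscle list was also detected, with 7 of its 8 genes tested, so detection of the fibroblast list alone does not check the label. Pdgfra, a growth factor receptor of fibroblasts, fell with the mimic (log2 fold change -0.97, adjusted p = 0.00865, limma), though not within slide row 1. Dcn, the matrix proteoglycan decorin, rose (1.18, adjusted p = 0.0324, limma), but 9 of 24 settings did not call it, including those without control 1, without miR-127-3p 2, 4 or 7 and without controls 3 and 6.

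Muscle transcripts were detected in both groups and varied widely from array to array, and no member was called different between control and mimic. Of the 10 members, 9 passed the filter of signal above background on at least 4 arrays and were tested. None of the 9 was called by limma, where 34.2% of all features were, and none had an unadjusted p under 0.05; the trended, robust form of limma also called none of the 9 and gave none an unadjusted p under 0.05. Over every probe of the members, 0 of 12 tested probes were called, where 33.8% of all probes were (18.1% lower). The groups overlapped for all 9, whereas they did not overlap in 34.2% of all features. The median log2 fold change of the 9 was -0.25, against 0.02 over all features. Within each of the slide's rows, with 2 control and 2 mimic arrays each, 0 of the 9 were called by limma, where 10.3% of all features were in row 1 and 9.42% in row 2. Without controls 3 and 6, 0 of the 9 were called, where 27.3% of features were, and with the slide column as a block, 0 of 9 and 23.4%. Without the background filter 0 of 10 were called, where 9.96% of 36708 features were.

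**Figure D1:**
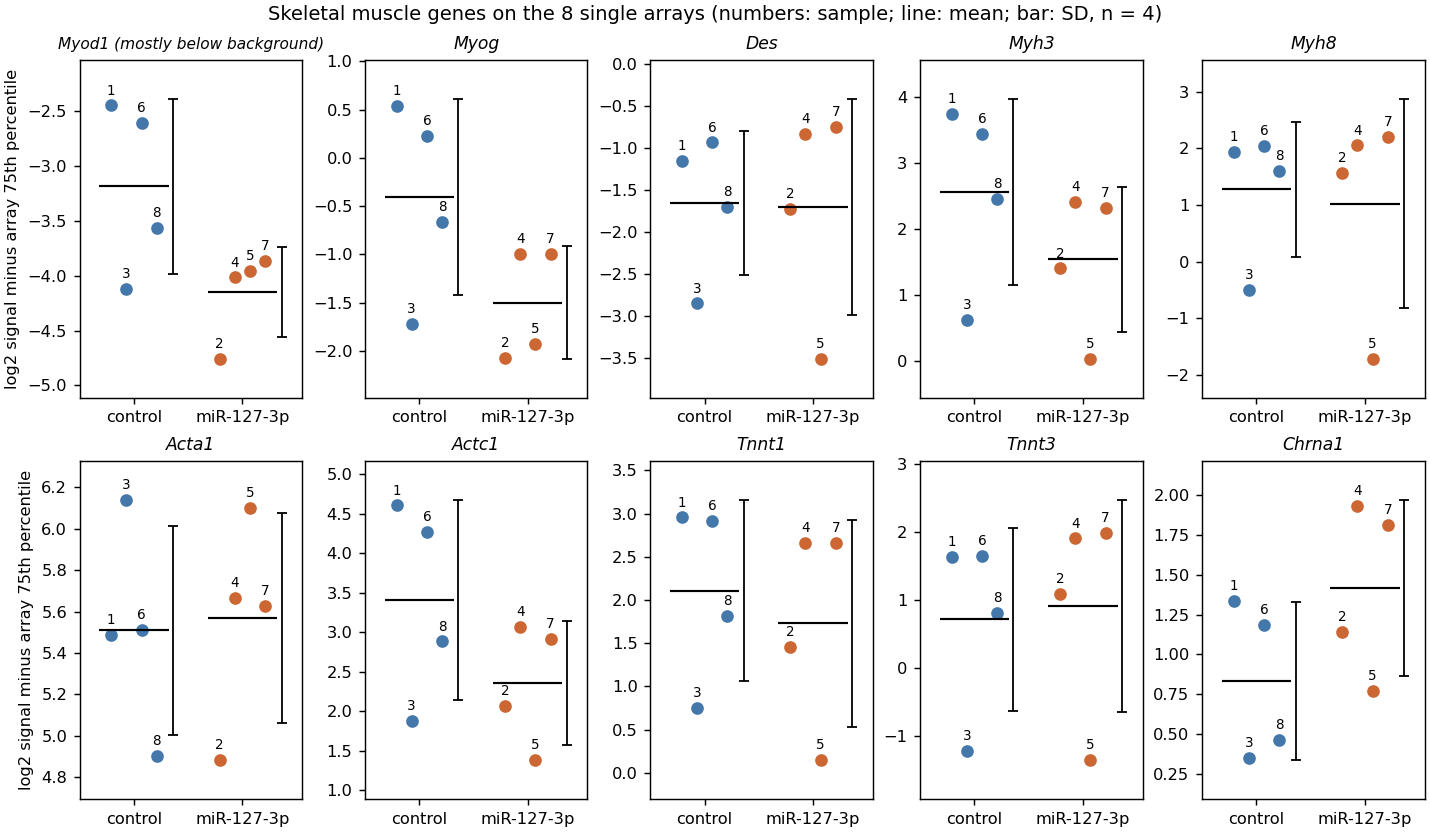
Log2 signal minus the array's 75th percentile (y axis) of each of the 10 muscle genes on each array, by group, with the sample number beside each point, the mean as a line and the SD (n = 4) as a bar. Control 3 is the lowest control for 9 of the 10 genes and miR-127-3p 5 the lowest mimic array for 7, while for Acta1 these arrays are the highest of their groups; axes differ between genes.

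The regulators came first in the order of differentiation. Myod1, which commits cells to the muscle lineage, was read by 10 copies of 1 probe and was well above background on 2 control arrays and no mimic array. Its level was -2.45, -4.12, -2.61 and -3.56 in controls 1, 3, 6 and 8, and -4.76, -4.02, -3.96 and -3.87 in mimic samples 2, 4, 5 and 7. Controls 1 and 6, the only arrays where it was well above background, stood above every other array. Control 8 lay between them and the mimic arrays, and control 3 lay among the mimic arrays, but these signals were not well above background. Myod1 was below the filter and was not tested. No fold is given, because it was not well above background on any mimic array.

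Myog, which drives the exit into differentiation, was well above background on all 8 arrays. It was at 0.54, -1.72, 0.23 and -0.66 in controls 1, 3, 6 and 8 and at -2.07, -0.998, -1.93 and -0.999 in mimic samples 2, 4, 5 and 7. Controls 1 and 6 were again the highest, and control 3 was lower than 2 of the 4 mimic arrays. The mean was -0.41 ± 1.01 (SD, n = 4) in controls and -1.50 ± 0.58 with the mimic, a log2 fold change of -1.09 (95% interval -2.22 to 0.03, adjusted p = 0.121, limma; exact permutation p = 0.114, two-sided, where 70 assignments allow no p below 0.0286). The Myog result turned on control 3: without it the log2 fold change was -1.53 and Myog was called (adjusted p = 0.0175, limma), in a fit that called 16.9% of features lower. Without control 3 and miR-127-3p 5 together it was -1.39 (adjusted p = 0.0356, limma), and 34.1% of features were called, 17.2% lower. Without controls 3 and 6, whose treatment entry is ambiguous, it was -1.44 (adjusted p = 0.0548, limma). Over these and the other settings tried, all 24 gave a log2 fold change below 0, with adjusted p from 0.0121 to 0.491.

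Desmin, Des, the intermediate filament that ties sarcomeres together and one of the earliest muscle structural proteins, was read by 10 copies of its probe. It was at -1.15, -2.85, -0.93 and -1.70 in controls 1, 3, 6 and 8 and at -1.72, -0.83, -3.51 and -0.74 in mimic samples 2, 4, 5 and 7. Control 3 and miR-127-3p 5 lay below every other array, and only on those 2 arrays were most of its spots not above background. The difference between groups was -0.04 (95% interval -1.53 to 1.44, adjusted p = 0.968, limma), against a range of 1.92 within controls and 2.77 within the mimic group.

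The myosin heavy chains Myh3 and Myh8 encode the embryonic and the perinatal motor of the thick filament and lie in 1 cluster on chromosome 11, with Myh2, Myh1 and Myh4 between them. Myh3 was at 3.75, 0.63, 3.44 and 2.46 in controls 1, 3, 6 and 8 and at 1.41, 2.41, 0.04 and 2.32 in mimic samples 2, 4, 5 and 7. The lowest control and the lowest mimic array were again control 3 and miR-127-3p 5. Its log2 fold change was -1.02 (95% interval -2.74 to 0.69, adjusted p = 0.327, limma), and a further probe gave -0.84 (adjusted p = 0.425). Myh8 was at 1.94, -0.50, 2.05 and 1.61 in controls and at 1.56, 2.05, -1.72 and 2.20 with the mimic. Apart from control 3 and miR-127-3p 5, the 6 remaining arrays of Myh8 lay between 1.56 and 2.20 in both groups. Its log2 fold change was -0.25 (95% interval -2.36 to 1.86, adjusted p = 0.859, limma). A further Myh8 probe was not above background on any array. Of the adult fast myosins between them, Myh2 and Myh4 were above background on no array and Myh1 on 2.

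As a description of how the pair shifted between arrays, and not of their relative amounts, Myh3 minus Myh8 on the same array was 1.81, 1.12, 1.39 and 0.85 in controls 1, 3, 6 and 8 and -0.16, 0.36, 1.76 and 0.13 in mimic samples 2, 4, 5 and 7. Mimic arrays 2, 4 and 7 lay below every control, and miR-127-3p 5 lay within the control range. These differences were picked after the values were seen and carry no test.

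The sarcomeric actins form the thin filament. Actc1, the cardiac form used early in skeletal muscle, was at 4.60, 1.88, 4.27 and 2.88 in controls 1, 3, 6 and 8 and at 2.06, 3.06, 1.38 and 2.91 in mimic samples 2, 4, 5 and 7. It kept the order of Myh3, with controls 1 and 6 the highest and control 3 and miR-127-3p 5 the lowest of their groups. The log2 fold change was -1.05 (95% interval -2.48 to 0.37, adjusted p = 0.226, limma). Of the heart list, Gata4, Nkx2-5, Nppa, Tnni3 and Ryr2 were above background on no array and Myh6 on 3. Nppb (0.93, adjusted p = 0.0933, limma) and Tnnt2 (0.02, adjusted p = 0.935) were above background on all 8 arrays and were not called.

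Acta1, the adult skeletal actin, went another way. It was at 5.49, 6.14, 5.51 and 4.90 in controls 1, 3, 6 and 8 and at 4.88, 5.67, 6.10 and 5.63 in mimic samples 2, 4, 5 and 7. Control 3 and miR-127-3p 5, the lowest arrays for most members, were its highest. The log2 fold change was 0.06 (95% interval -0.64 to 0.76, adjusted p = 0.898, limma). Actin genes have similar coding sequences and Acta1 was read by a single probe. The probe's sequence was not analysed here, so signal from other actins in this value was not tested.

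The troponin T genes encode the subunit that fixes troponin to the thin filament, Tnnt1 in slow and Tnnt3 in fast fibres. Tnnt1 was at 2.96, 0.75, 2.91 and 1.81 in controls 1, 3, 6 and 8 and at 1.46, 2.66, 0.15 and 2.66 in mimic samples 2, 4, 5 and 7. Tnnt3 was at 1.63, -1.22, 1.64 and 0.81 in controls and at 1.09, 1.90, -1.35 and 1.98 with the mimic. In both genes the 2 low arrays stood below the others, and the remaining arrays of the groups interleaved. The log2 fold change was -0.38 for Tnnt1 (95% interval -1.90 to 1.15, adjusted p = 0.699, limma) and 0.19 for Tnnt3 (95% interval -1.78 to 2.16, adjusted p = 0.886). A further probe gave -0.29 for Tnnt1 and 0.17 for Tnnt3, so the tested probes of each troponin T gene gave the same direction. The further Tnnt1 probe was not above background on control 3 or miR-127-3p 5.

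Chrna1, the alpha subunit of the muscle acetylcholine receptor, was the member with the highest positive fold change. It was at 1.33, 0.35, 1.19 and 0.47 in controls 1, 3, 6 and 8 and at 1.14, 1.93, 0.77 and 1.81 in mimic samples 2, 4, 5 and 7. The 2 highest arrays were mimic arrays and the 2 lowest were controls, but the ranges overlapped. The log2 fold change was 0.58 (95% interval -0.14 to 1.30, adjusted p = 0.192, limma; exact permutation p = 0.171, two-sided). A further Chrna1 probe was above background on 2 control arrays only and was not tested.

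**Figure D2:**
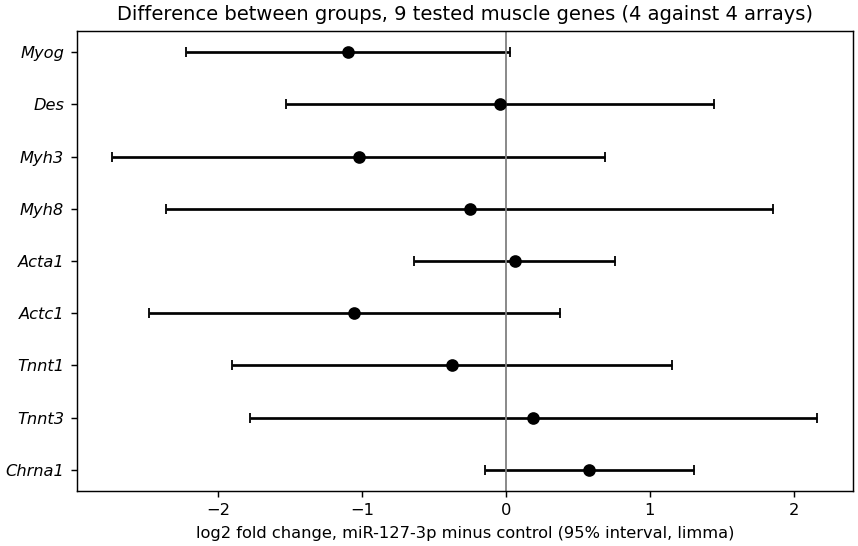
Log2 fold change (x axis, miR-127-3p minus control, limma, 4 against 4 arrays) of the 9 tested members with 95% intervals. Every interval includes 0, from the narrowest, Acta1 (-0.64 to 0.76), to the widest, Myh8 (-2.36 to 1.86).

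The spread between single arrays was the main feature of these genes. After removal of the group means, the SD between arrays was 1.56 for Myh8, 1.46 for Tnnt3, 1.26 for Myh3, 1.13 for Tnnt1, 1.09 for Des, 1.05 for Actc1, 0.83 for Myog, 0.53 for Chrna1 and 0.51 for Acta1 on the log2 scale. The median over the 9 was 1.09, against 0.18 over all features tested, and it was 0.48 without control 3 and miR-127-3p 5. Only 0.146% of all features had a larger SD than Myh8, 0.252% than Tnnt3 and 0.462% than Myh3. For Acta1 and Chrna1 the shares were 6.86% and 6.16%. Within the fifth of features closest in mean signal, the share with a larger SD lay between 0.0877% (Myh8) and 3.54% (Chrna1). In linear terms, the highest and lowest array differed 5.84-fold in controls and 15.1-fold with the mimic for Myh8, and 8.70-fold and 5.19-fold for Myh3. Because RNA of whole cultures was measured, fewer muscle cells and less muscle RNA per cell cannot be told apart, and the share of myogenic cells in each culture was not measured.

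**Figure D3:**
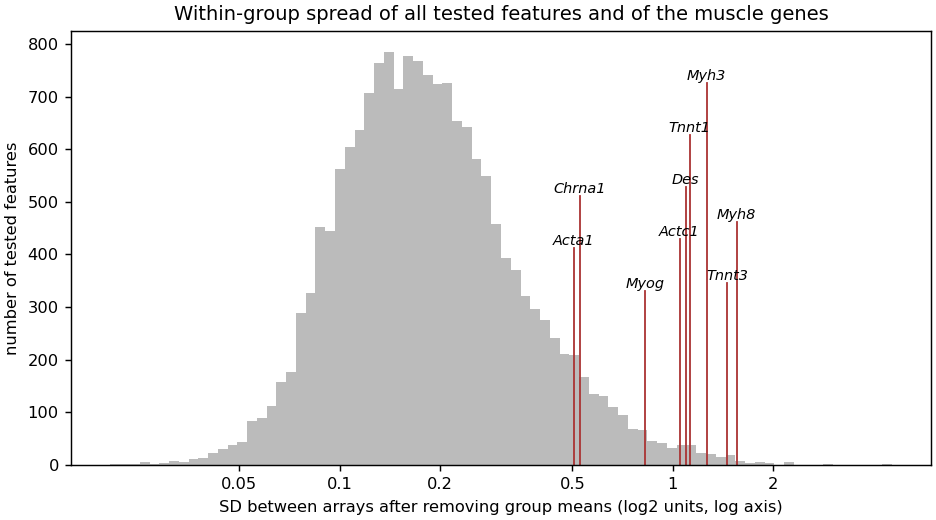
Histogram of the SD between arrays after removal of group means (x axis, log2 units on a log axis) for the 17093 tested features, with the 9 tested members as red lines. All 9 lie above the median of 0.18, and 7 of them are among the 5% of features with the largest SD.

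The same arrays set the spread for most members. Control 3 was the lowest control for 9 of the 10 members and miR-127-3p 5 the lowest mimic array for 7. Among mimic arrays Myod1, Myog and Acta1 were lowest in miR-127-3p 2. The Myod1 signal was not well above background on control 3 or on any mimic array. Over all features, control 3 was the lowest control in 22.7% and miR-127-3p 5 the lowest mimic array in 24.9%. Correlations over the 8 arrays of values centred on their group means describe this. Among the 28 pairs of the 8 tested members other than Acta1, Pearson's r ran from 0.69 (Myog and Myh8) to 0.99 (Des and Tnnt3), with a median of 0.93 and Spearman's rho of 0.64 or higher. Tnnt1 followed the mean of the other members most closely (r = 0.997, rho = 0.90; r = 0.997 without control 3 and miR-127-3p 5, the arrays farthest from the median). Chrna1 had r = 0.94 with the mean of the others, and 0.99 without those arrays. The points share arrays, slide and scaling, and no p is given.

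Acta1 had r = -0.44 with the mean of the other members. The value depended on the arrays used: it was 0.99 without control 3 and miR-127-3p 5, the arrays farthest from the median of the other members, and -0.98 without control 8 and miR-127-3p 2, those farthest from the median of Acta1. Over all 8 arrays Acta1 varied with genes of smooth muscle and myofibroblasts. Its r was 0.98 with Actg2, the enteric smooth muscle actin, 0.98 with the calponin Cnn1, 0.97 with the smooth muscle myosin Myh11, 0.95 with Acta2, the smooth muscle actin that marks myofibroblasts, 0.95 with Tagln, 0.81 with Smtn and 0.63 with Lmod1. Without control 8 and miR-127-3p 2 these ran from 0.77 (Lmod1) to 0.98 (Actg2). All 7 tested genes of the smooth muscle list were highest in control 3 among controls and in miR-127-3p 5 among mimic arrays. Over all 17093 features, control 3 was the highest control for 6133 and miR-127-3p 5 the highest mimic array for 5534. Control 3 was also the highest control for 4 of 5 tested keratinocyte, 3 of 3 endothelial and 2 of 2 heart genes. For miR-127-3p 5 among mimic arrays these counts were 2, 0 and 1. The array medians of the smooth muscle list were 6.91, 7.71, 6.55 and 5.92 in controls 1, 3, 6 and 8. They were 6.33, 7.45, 7.87 and 7.07 in mimic samples 2, 4, 5 and 7, and 0 of its 7 tested genes were called between groups. In each group the array with the lowest value for most members thus had the highest value for every tested smooth muscle gene. The opposite order rested on these 2 arrays. Over all 8 arrays the median r of the 7 genes with the mean of the tested members was -0.44, and 0 reached 0.9. Without control 3 and miR-127-3p 5 the median r was 0.96, and 5 of the 7 reached 0.9. The part of the smooth muscle genes in the members' spread was not tested.

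Other skeletal muscle genes were read from 4 lists. Of their 75 genes, 44 were tested, 3 rose and 3 fell, where 18.2% of named features rose and 20.1% fell. Of the 3 that fell, Mymx and Myh7 were above background on 1 mimic array each and passed the filter through the controls, so their direction is given without an exact size. The median log2 fold change of the 44 was 0.01. For 33 of the 44 control 3 was the lowest control, and for 37 miR-127-3p 5 was the lowest mimic array. Leaving out single arrays gave 3 to 8 that rose and 1 to 4 that fell: 5 rose and 4 fell without control 3, 8 rose and 2 fell without miR-127-3p 5, and 1 fell without control 1, 6 or 8 or without miR-127-3p 2. Those fits called 4320 to 5789 of all 17093 features in either direction. Without control 3 and miR-127-3p 5 together, 9 of the 44 rose and 4 fell, where 34.1% of all features were called, 17.2% lower.

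Of 19 tested genes of the sarcomere, 1 fell and 0 rose, with a median log2 fold change of -0.10. The gene that fell was Myh7, the slow and cardiac beta myosin (adjusted p = 0.0168, limma). It passed the filter only through the controls, with 4 control arrays and 1 mimic array above background. It was not called within slide row 1 or without the background filter. The array medians of the list were -0.27, -2.16, -0.25 and -0.85 in controls 1, 3, 6 and 8 and -1.18, -0.72, -1.91 and -0.42 in mimic samples 2, 4, 5 and 7. The lowest median of each group was on control 3 and miR-127-3p 5, and the list thus shared the members' order. Of the 19 genes, 15 had r of at least 0.9 with the mean of the tested members, 10 without the 2 farthest arrays; among 12022 other named features 184 (1.53%) reached it, and 543 without those arrays. Of the list's 34 genes, 13 were above background on no array. They were Mylpf, Myl2, Myl3, Mybpc2, Myh2, Myh4, Myoz1, Myoz2, Trim63, Klhl40, Klhl41, Unc45b and Xirp1. Genes above background on all 8 arrays included Tnnc2, Tnni2 and Myom2.

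Of 11 tested genes of excitation, calcium release and the synapse, 1 fell and 0 rose (median log2 fold change 0.00). Stac3, which couples the calcium channel to contraction, was at 0.13, -0.13, 0.43 and 0.08 in controls 1, 3, 6 and 8 and at -0.65, -1.19, -0.36 and -0.21 in mimic samples 2, 4, 5 and 7. Its groups did not overlap (log2 fold change -0.73, SE 0.22, adjusted p = 0.0302, limma), but 9 of 24 settings did not call it, including those without control 1, 6 or 8 and without miR-127-3p 2. The receptor subunit genes Chrng, Chrne and Chrnb1 were above background on no array. Of 7 tested genes of muscle energy, Fabp3, a fatty acid carrier of muscle and other tissues, rose (1.53, SE 0.20, adjusted p = 0.000673, limma) and 0 fell; it was lowest in the mimic group on miR-127-3p 5 (1.29) and it was not called within slide row 2. In limma, Mb, encoding myoglobin, had 0.94 (adjusted p = 0.321), Cox8b 0.49 (adjusted p = 0.684), Cox6a2 -0.58 (adjusted p = 0.375), Pgam2 0.65 (adjusted p = 0.246), Eno3 0.69 (adjusted p = 0.0934) and Pygm 0.03 (adjusted p = 0.897). The creatine kinase genes Ckm and Ckmt2, abundant in mature muscle, and Ampd1 were above background on no array.

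Of 7 tested regulators and satellite cell genes, 2 rose and 1 fell. Mymx, the small membrane protein that completes myoblast fusion, was at 0.86, -1.98, 0.78 and -0.52 in controls 1, 3, 6 and 8 and at -3.002, -1.92, -4.41 and -1.89 in mimic samples 2, 4, 5 and 7. Control 3 lay within the mimic range and the other controls above it. It was called lower (adjusted p = 0.0285, limma), but it passed the filter only through the controls, with 4 control arrays and 1 mimic array above background. In 10 of 23 settings it was not called. These included normexp background correction and the fit without the background filter. They also included the fits without control 1, 6 or 8 or without miR-127-3p 2 or 5. Its log2 fold change was negative in all 23, though most of its mimic values were not above background. Its fusion partner Mymk had -0.13 (adjusted p = 0.874, limma). Megf10, a receptor of satellite cells that other cells also express, rose (1.07, SE 0.25, adjusted p = 0.0110, limma) and Six4, a homeobox factor upstream of the Myod1 family, rose by 0.51 (SE 0.10, adjusted p = 0.00503, limma). Neither was called within slide row 1 or row 2, Megf10 was not called with the slide column as a block, and Six4 was not called without scaling between arrays. Log2 fold changes in limma were 0.32 for Itga7 (adjusted p = 0.103) and -0.23 for Cdh15 (adjusted p = 0.724). Pax7, the defining factor of satellite cells, and Myf5 and Myf6 were above background on no array, and Pax3 on 1.

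**Figure D4:**
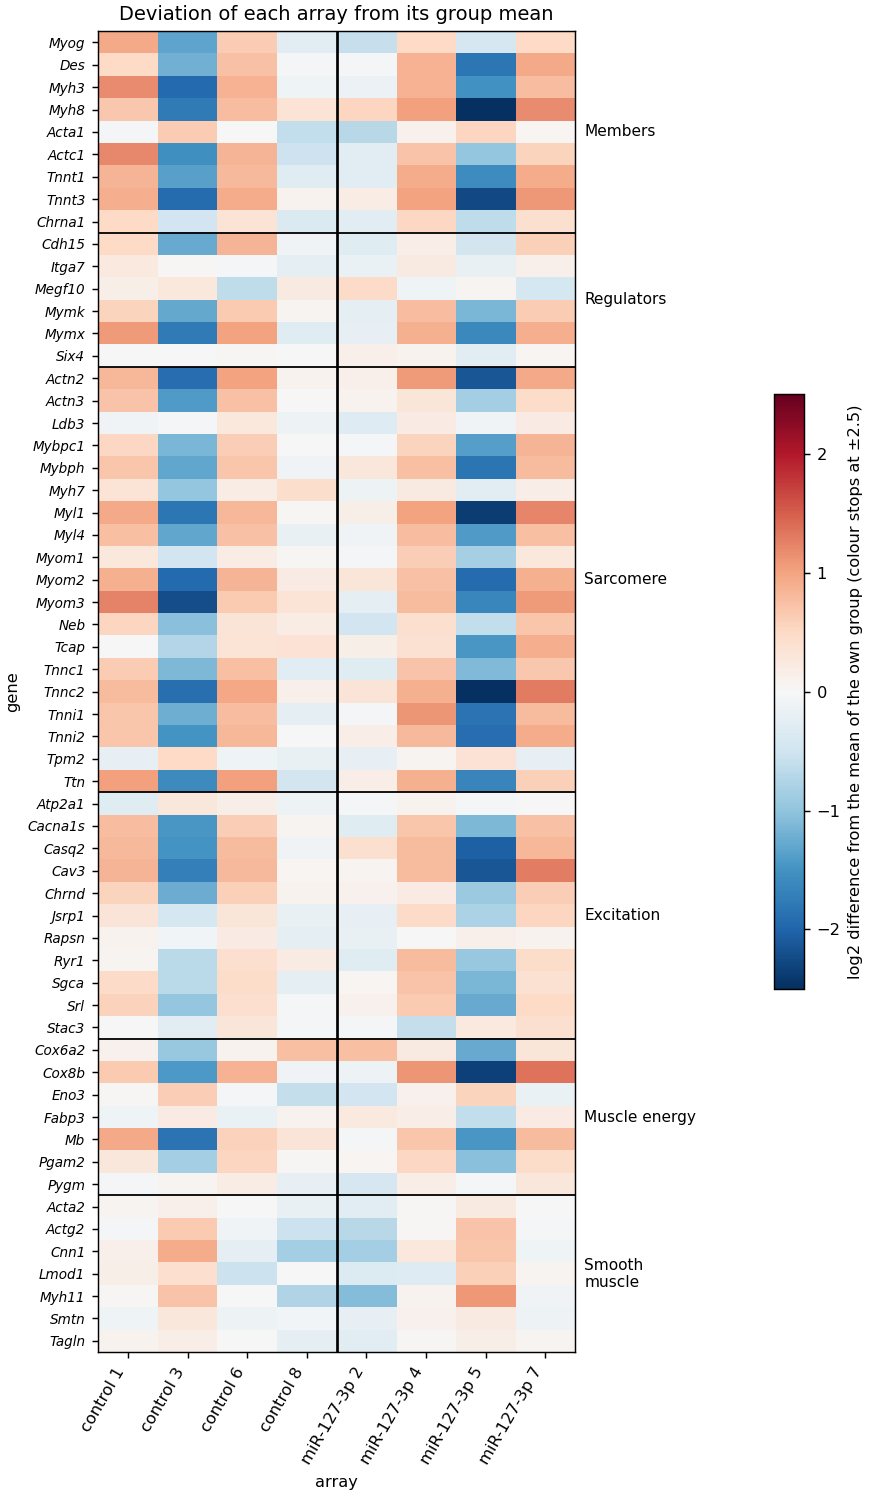
Difference of each array (columns) from the mean of its own group (log2, colour) for the 9 tested members, other tested muscle genes of 4 lists and 7 smooth muscle genes (rows). Control 3 and miR-127-3p 5 are blue in most skeletal muscle rows and red in the smooth muscle rows.

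The 10 named features most like the members, by r over the 8 arrays with the mean of the 9 members' centred values, were Myl4 (r = 0.999), Mymx (0.997), Gstm3 (0.997), Hrc (0.995), Tnnc1 (0.994), Bex1 (0.994), Lmod3 (0.988), Egr1 (0.987), Mymk (0.987) and Calm4 (0.986). Of these, Myl4, Mymx, Tnnc1 and Mymk were on the muscle lists. Without the 2 farthest arrays their r was between 0.95 and 1.00. The points share arrays, of which 2 stand far from the rest.

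Because the sarcomere level differed so much between arrays, the groups were also compared with the array median of the sarcomere list as a covariate, a fit added after the data were seen. The list holds none of the 10 members, but it was measured on the same arrays after treatment. Of its 19 tested genes, 15 had r of at least 0.9 with the mean of the tested members. This fit therefore describes the members relative to other muscle genes of the same array. In this fit 3 of the 9 tested members fell and 1 rose, where 19.5% of all features fell and 17.5% rose, and 37.0% changed in either direction. Myog fell by 0.92 on the log2 scale (SE 0.21, adjusted p = 0.0121, limma), Myh3 by 0.74 (SE 0.15, adjusted p = 0.00753) and Actc1 by 0.83 (SE 0.22, adjusted p = 0.0221). Chrna1 rose by 0.68 (SE 0.18, adjusted p = 0.0192, limma). The share of members called, 4 of 9, is near that of all features. Leaving out each array in turn kept the calls of Myog and Myh3 in all 8 cases, while that of Actc1 was lost without control 3, without control 6 or without miR-127-3p 7 and that of Chrna1 without miR-127-3p 4 or without miR-127-3p 7. Des, Myh8 and Tnnt3 were called higher in 1 of these 8 cases, without miR-127-3p 5. With normexp background correction the covariate fit in limma called Myog (-0.44, adjusted p = 0.0387) and Chrna1 (0.55, adjusted p = 0.0110), did not call Myh3 (-0.48, adjusted p = 0.0986) or Actc1 (-0.61, adjusted p = 0.050, not under the threshold), and called Tnnt3 higher (0.66, adjusted p = 0.0274). Myh8 (0.06, adjusted p = 0.925), Des (0.19, adjusted p = 0.621), Tnnt1 (-0.13, adjusted p = 0.670), Tnnt3 (0.51, adjusted p = 0.181) and Acta1 (0.01, adjusted p = 0.991) were not called by limma with the covariate.

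**Figure D5:**
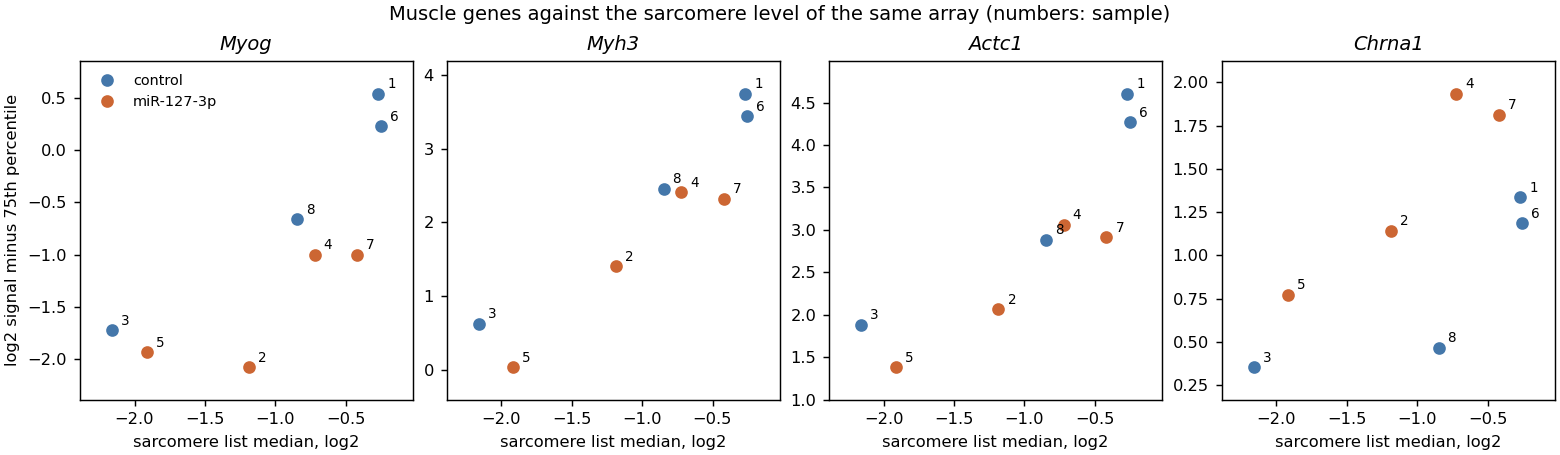
Level of Myog, Myh3, Actc1 and Chrna1 (y axis, log2 signal minus the array's 75th percentile) against the median of the tested sarcomere list on the same array (x axis, log2), by group, with sample numbers. Control 3 and miR-127-3p 5, the arrays with the lowest sarcomere medians (-2.16 and -1.91), are lowest or next to lowest of their groups for all 4 genes.

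Markers of other cell types were set beside these arrays. Of 9 tested macrophage genes 8 rose with the mimic and 0 fell, where 18.2% of named features rose, led by Lyz2 (1.79), C1qa (1.37) and Cd68 (1.30), with array medians of 0.36, 0.28, 0.14 and 0.42 in controls 1, 3, 6 and 8 and 1.65, 2.01, 0.54 and 1.79 in mimic samples 2, 4, 5 and 7. The lowest mimic array, miR-127-3p 5, is also the one poorest in most muscle transcripts, whereas control 3 was not the lowest control in this list. The count that rose was 7 within slide row 1, 1 within slide row 2, 4 without controls 3 and 6, and 6 to 8 when single arrays were left out. Of all features, 34.2% were called in either direction in the reported fit. The share was 10.3% within slide row 1, 9.42% within slide row 2 and 27.3% without controls 3 and 6. Without single arrays 4320 to 5789 of 17093 features were called. Ptprc, the defining leukocyte gene, was above background on no array. Of the keratinocyte list 1 of 5 tested genes rose and 0 fell, beside the same 18.2%. The gene was Krt10, not called in 6 of 24 settings, and 3 rose without control 3. Of the endothelial list 1 of 3 tested genes rose (Vwf) and 0 fell, beside the same 18.2%. Vwf was above background on 2 control arrays and 4 mimic arrays and passed the filter only through the mimic group. Its direction is given without an exact size. The other tested endothelial genes, Kdr (0.13, adjusted p = 0.524, limma) and Pecam1 (-0.06, adjusted p = 0.827), were not called. Neither control 3 nor miR-127-3p 5 had the lowest keratinocyte median. The medians of the dermal fibroblast list were lowest on the same 2 arrays, 6.00 in control 3 and 6.82 in miR-127-3p 5, but its genes were split. Control 3 was the lowest control for 4 of its 8 genes (22.7% of all features) and the highest for 1. The array miR-127-3p 5 was the lowest mimic array for 4 of the 8 (24.9% of all features) and the highest for 3. The part of these cell types in the spread of the muscle genes was not tested.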

How the data were processed

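Per the file headers, the deposited scanner tables give spot intensities from version 11.5.1.1 of Agilent's Feature Extraction; analysis by the authors used GeneSpring 14.9.1, per the series' design text. A deposited table of log2 values equals each array's log2 processed intensity minus 1 constant for the array, close to its 75th percentile. All values in the text start from the processed intensities, except those with normexp background correction. Control spots and outlier-flagged spots were left out, spots of a probe were averaged on the log2 scale, and each array's 75th percentile was subtracted. Symbols came from RefSeq by accession (28331 of 55681 probes; 27350 kept the name in the file). Probes well above background on at least 4 of 8 arrays were kept, except 7 left out for an outlier spot. Smyd1 of the sarcomere list, above background on 7 arrays, was untested for this reason. Each gene was represented by the probe with the highest mean. The comparison used limma's moderated linear model (version 3.58.1, R 4.3.3), with two-sided p-values adjusted over 17093 features by the Benjamini-Hochberg method; the steps were tested on simulated data. The normexp alternative (offset 50) used median spot signals, because the scanner tables read here have no mean signal column. The named genes are the 10 members, the genes called from each list, every tested gene of short lists (1 result is not reported here, though the counts include it), and the 10 features most like the members; long lists of other cell types are given by leading genes only. The members and lists were chosen with earlier results of these data known. Only 4 arrays per group limit the precision.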

Additional observations from a re-analysis of the deposited data

Results flagged for a closer look

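Of 38 groups of 4 arrays checked for an array far from the others, 1 was found, where chance alone gives about 1 in 20. Myh8 was at -1.72 in miR-127-3p 5, while the nearest of the other mimic arrays was at 1.56.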

How the results depend on the processing

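Each result was recomputed under 24 settings, of which those without control 3 and miR-127-3p 5, without controls 3 and 6, and with the sarcomere median as a covariate were chosen after seeing the data. The number of features called, 5851, was 3805 without scaling between arrays, 3657 without the background filter, 1759 within slide row 1, 1611 within slide row 2 and 4320 to 5789 when single arrays were left out. Members called lower, 0 in the reported fit, were 0 to 1 when single arrays were left out (Myog without control 3), 1 without control 3 and miR-127-3p 5, and 3 with the sarcomere covariate, which also called 1 higher. The median spread between arrays, 1.09, was 0.48 without control 3 and miR-127-3p 5. The log2 fold changes of Myog, Myh3 and Actc1 were below 0 and that of Chrna1 above 0 in all 24 settings. Those of Des, Myh8, Acta1, Tnnt1 and Tnnt3 changed sign in some, and none of these 5 was called in any of the 24 (23 for Des). The cause of these changes was not tested. The sample numbers in the labels are not shared between the groups and pair no samples. Each slide column held 1 control and 1 mimic array, and with the column as a block 4008 features and 0 members were called.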
